A study of Mus musculus with 5 samples.

Results

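The 41 genes described here are the cadherins and the non-clustered protocadherins of the mouse, with their seven-pass (Celsr) and giant (Fat, Dchs) relatives. They were listed by family name with results of these data in view, and a peak was counted for a gene when at least 1 bp of it lay over the gene or the 2 kb on either side. All 41 were found among 21631 protein-coding genes on chromosomes 1 to 19 and X. The peaks were those of 3 chromatin immunoprecipitation and sequencing (ChIP-seq) libraries from the mouse embryonic stem cell line MPI-II. H2AK119ub, the ubiquitin mark on histone H2A, was profiled in wild-type cells and in DDX5 knockout cells, and RYBP was profiled in wild-type cells with an antibody named for its alias DEDAF. DDX5 is a DEAD-box RNA helicase, and the knockout cells were monoclonal, raised with a Cas9 nickase and paired guides against exon 2 of Ddx5, and how many clones went into the library is not given in the sources used here. Cells of both genotypes were at passages 13 to 18 and grew on feeders in serum with 1000 U/ml LIF, 1 µM of the MEK inhibitor PD0325901 and 3 µM of a GSK3 inhibitor. Each group held 1 library, so no difference below has a replicate check and no test or p-value is given. Input libraries of both genotypes completed the 5 samples and were not analysed here.

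Cadherins are calcium-dependent adhesion proteins whose extracellular repeats bind the same kind of protein on the next cell. Classical cadherins tie this contact to the actin skeleton through catenins, and a switch from E-cadherin (Cdh1) to N-cadherin (Cdh2) accompanies the exit of epithelial cells into mesoderm and neural fates. Protocadherins sort cells in the developing brain and somites, and the Celsr, Fat and Dchs proteins carry planar polarity across a tissue. H2AK119ub is placed by Polycomb repressive complex 1, which keeps developmental genes silent in stem cells, and RYBP belongs to the variant forms of that complex that are found at CpG-rich promoters.

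The wild-type and knockout H2AK119ub lists held 24235 and 20994 peaks, and the RYBP list held 9564. Of these, 241, 239 and 44 lay over the 41 genes, and no peak was shared by a pair of members. The lists gave positions only, so depth is unknown and a list with fewer or narrower peaks cannot be told apart from less mark. Summed over all protein-coding genes and their flanks, the covered length in the knockout was 0.67 times that of the wild type. Among stem cell marker genes, Pou5f1, Nanog, Sox2 and Zfp42 had no peak in any library, Klf4 had RYBP alone and Esrrb had H2AK119ub in both genotypes. Among fibroblast markers, Col1a1, Thy1, Pdgfrb and Cdh11 had H2AK119ub in both genotypes, Vim had RYBP alone and Col1a2 had no peak. These lists do not measure expression and so do not test the labelled cell type, nor the share of feeder cells.

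Wild-type H2AK119ub lay over 24 of the 41 genes, 58.5% (Wilson 95% interval 43.4% to 72.2%), where 27.9% of all protein-coding genes had it. In the knockout the mark lay over 27, where 23.6% of all genes had it, and RYBP lay over 24, where 37.6% had it. These genes are long, with a median of 119158 bp against 17329 bp for all protein-coding genes, and a long gene meets more peaks. Among protein-coding genes of 100 kb or more the 3 shares were 37.1%, 36.2% and 62.0%. The RYBP share of the 41 genes, 58.5%, thus lay near that of long genes, and both H2AK119ub shares lay above. Only 22 of the 41 are 100 kb or more, so long genes are not a match for the whole list. No H2AK119ub peak in either genotype was found at 13 of the 41, where 69.2% of all genes and 57.1% of long genes had none. Since the list was made with results in view, nothing further is read from these counts. The intervals treat genes as independent and cover counting error only.

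**Figure D1:**
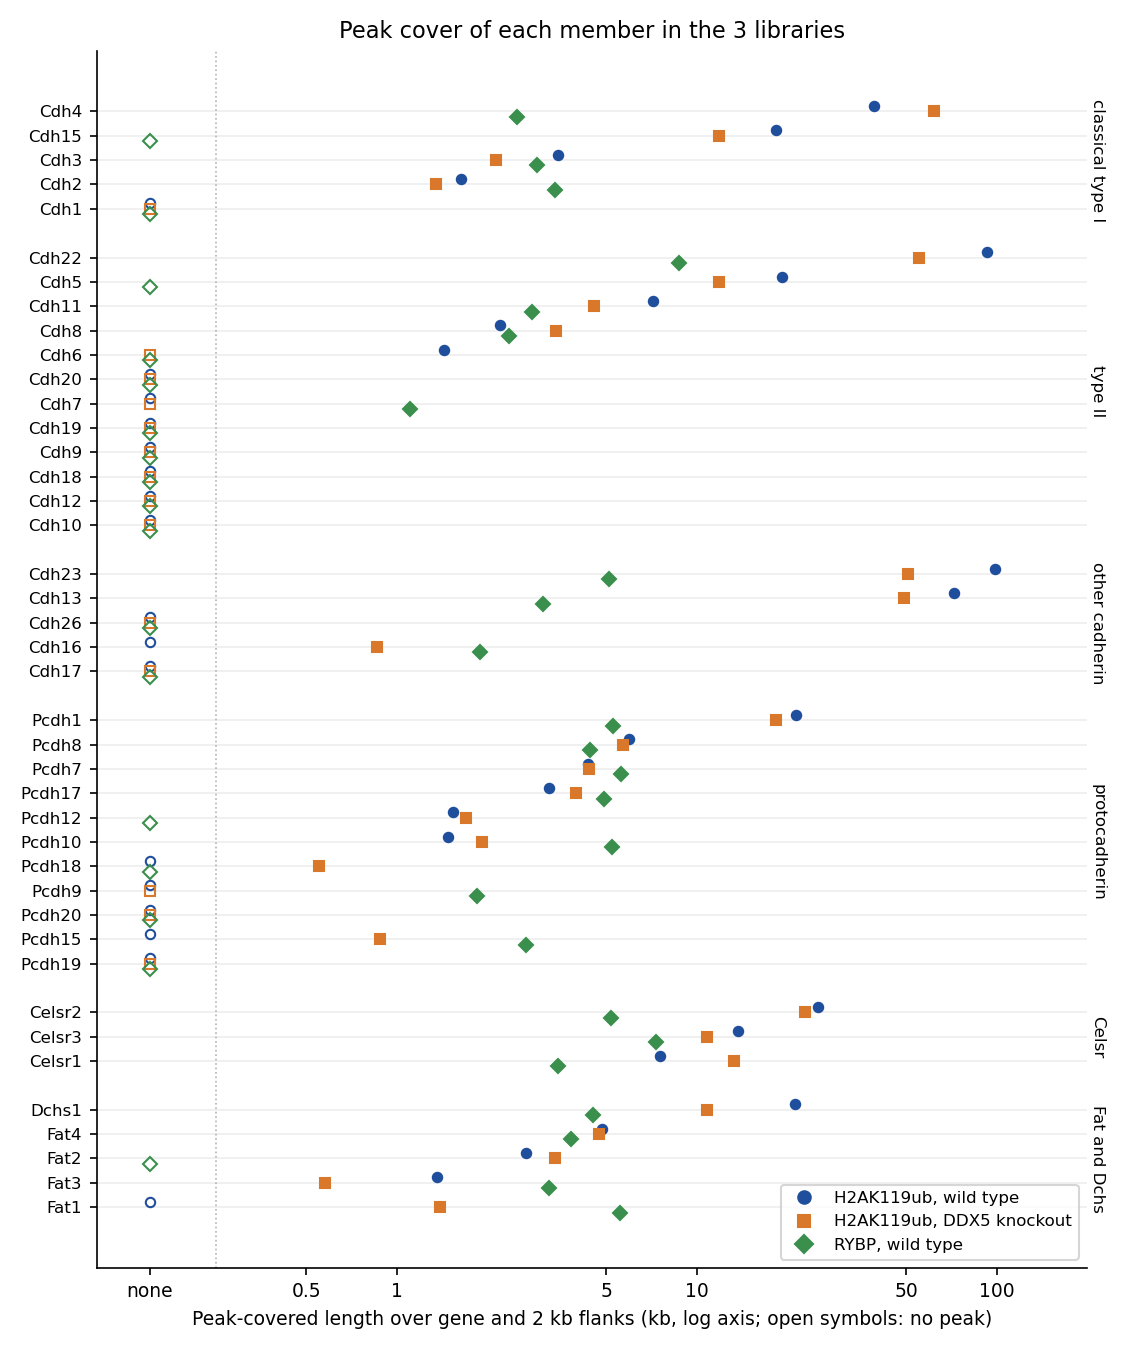
Each row is 1 gene and each symbol the length covered by peaks over the gene and its 2 kb flanks (kb, log axis) in 1 library, with open symbols at the left for no peak and genes grouped by family. Cdh23, Cdh22, Cdh13 and Cdh4 stand to the right of the other genes in both H2AK119ub libraries, and 11 genes have open symbols throughout.

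The cover was very uneven. Cdh4, Cdh13, Cdh22 and Cdh23 held 73.0% of the wild-type H2AK119ub peaks of the family and 64.2% of the covered length. At least 5 wild-type peaks were found at 9 genes, where 4.90% of all genes and 11.8% of long genes had as many. At the other end, 11 genes had no peak in any library, where 52.8% of all protein-coding genes and 31.7% of long ones had none. These were Cdh1, Cdh9, Cdh10, Cdh12, Cdh17, Cdh18, Cdh19, Cdh20, Cdh26, Pcdh19 and Pcdh20.

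Among the classical type I cadherins, E-cadherin stood apart. Cdh1 (gene ID 12550, mm10 chromosome 8, 106603350 to 106670247), the adhesion protein that holds embryonic stem cell colonies together, had no peak of H2AK119ub in either genotype and none of RYBP. Its neighbour Cdh3, the P-cadherin of placenta and epidermis, ends 46438 bp before Cdh1 begins and was marked. Cdh3 (106510852 to 106556911) carried 3438 bp of wild-type H2AK119ub, 2148 bp of knockout H2AK119ub and 2940 bp of RYBP, all at its lower-coordinate end. The nearest wild-type H2AK119ub peak to Cdh1 was this one, 90575 bp away. The 2 genes side by side thus differed in all 3 libraries.

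Cdh2 (chromosome 18, 16588877 to 16809246), the N-cadherin of neural and mesodermal cells, had 1 peak in each library. The wild-type H2AK119ub peak ran from 16806703 to 16808341 and covered 1639 bp. The knockout peak lay inside it, from 16806729 to 16808084, and the RYBP peak, from 16806793 to 16810160, reached 3368 bp across the higher-coordinate end of the gene. No other H2AK119ub peak lay within 1 Mb of Cdh2 on either side in either genotype. The mark at Cdh2 was therefore a single small site in a long gene, which covered 0.73% of the gene and its flanks, and 0.60% once DDX5 was lost.

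Cdh4 and Cdh15 were marked inside the gene. Cdh15 (chromosome 8, 122848374 to 122867397), the M-cadherin of muscle precursors, had 18425 bp of wild-type H2AK119ub, or 80.0% of the gene and flanks, beside 11888 bp of knockout mark. Its widest wild-type peak was 10113 bp, from 122845170 to 122855282, and ran across the gene start. It had no RYBP peak, the nearest lying 71920 bp away. Cdh4 (chromosome 2, 179442423 to 179899377), the R-cadherin of retina and brain, had 30 wild-type peaks with 38911 bp and 47 knockout peaks with 61660 bp. In base pairs, Cdh4 thus had the largest excess of knockout over wild-type cover among the 41. Its single RYBP peak, 2524 bp wide from 179441624 to 179444147, lay at the lower-coordinate end.

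Type II cadherins act mainly in brain, mesenchyme and vessels. No peak at all was found at 6 of the 12, where 52.8% of all genes and 31.7% of long genes had none. Among the 12, 5 had wild-type H2AK119ub, where 27.9% of all genes and 37.1% of long genes had it, and 4 had knockout H2AK119ub, where 23.6% and 36.2% had it. RYBP lay over 4, where 37.6% and 62.0% had it. The most covered was Cdh22 (chromosome 2, 165111501 to 165234924), a brain cadherin, with 35 peaks in each genotype that covered 93090 bp (73.1% of gene and flanks) with DDX5 and 55126 bp (43.3%) without it. RYBP lay there in 5 peaks with 8755 bp, more than at any other member. All 5 overlapped wild-type H2AK119ub.

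Cdh5, the VE-cadherin of endothelium (chromosome 8, 104101613 to 104144504), had 19228 bp of wild-type mark, 11828 bp of knockout mark and no RYBP peak. Its widest wild-type peak, 8962 bp, covered the lower-coordinate end. Cdh11, a cadherin of mesenchyme and bone, had 7167 and 4553 bp with 2820 bp of RYBP inside the wild-type mark. Cdh8, a cadherin of cortical neurons, had 2217 bp in 1 wild-type peak, 3386 bp in 2 knockout peaks and 2367 bp of RYBP, with no other H2AK119ub peak within 1 Mb in either genotype. These 3 genes lie on chromosome 8, as do 9 of the 41, and H2AK119ub peaks there had a wild-type median width of 1802.5 bp against 1323 bp elsewhere. Off chromosome 8, wild-type H2AK119ub lay over 18 of 32 genes. The part of this chromosome in the values was not tested.

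Cdh6, a cadherin of kidney and hindbrain, carried the mark only with DDX5 present, the 1 such gene among the 41, where 7.20% of all genes and 6.76% of long genes did so. Its only peak was 1439 bp wide, from 13174028 to 13175466 on chromosome 15, and lay inside the annotated gene, with its near edge at -353 bp from the RefSeq start. Cdh7, expressed by neural crest, had 1105 bp of RYBP at its start and no H2AK119ub in either genotype. It and Pcdh9 were the 2 genes with RYBP and no mark, where 16.4% of all genes and 25.3% of long genes were so. Cdh9, Cdh10, Cdh12 and Cdh18, 4 neuronal cadherins that follow Cdh6 along chromosome 15, had no peak at all. Wild-type H2AK119ub came no closer than 3553 kb to Cdh9, 5643 kb to Cdh10, 4079.6 kb to Cdh12 and 2200.5 kb to Cdh18. Unlike Cdh1, which has marked genes nearby, these 4 lie in a stretch of the chromosome with no peaks in the lists.

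Of the cadherins outside both types, Cdh23 and Cdh13 were covered by many narrow peaks. Cdh23 (chromosome 10, 60302748 to 60696513), part of the tip link of inner ear hair cells, had 65 wild-type peaks with 98655 bp, 44 knockout peaks with 50722 bp and RYBP in 3 peaks with 5089 bp. Of these, 4 wild-type peaks, 2 knockout peaks and 1 RYBP peak reached within 2 kb of an end of another protein-coding gene, Vsir. At Gm17455, 2 wild-type peaks and 1 knockout peak did so. The wild-type peaks near a Vsir end lay at 60344145 to 60349664 and at 60427230 to 60435767, inside Cdh23. Only gene ends were checked, so Cdh23 peaks between these places may also lie over Vsir and are not in these counts. Cdh13 (chromosome 8, 118140017 to 119324929), the T-cadherin that is anchored by lipid in place of a membrane span, had 46 peaks with 71850 bp, 38 with 49136 bp and 1 RYBP peak of 3077 bp. The wild-type mark covered 24.8% of Cdh23 and 6.04% of Cdh13. Cdh16, the cadherin of kidney tubules, had 862 bp in the knockout alone and 1892 bp of RYBP, which lay at the opposite end of the gene. Cdh17 of intestine and Cdh26 had no peak.

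Among the 11 protocadherins, 6 had H2AK119ub in both genotypes, where 20.7% of all genes and 30.3% of long genes had it, and 2 in the knockout alone, where 3.00% and 5.85% had it. RYBP lay over 7, where 37.6% and 62.0% had it. At Pcdh8, Pcdh17, Pcdh10 and Pcdh7 the peaks were few and lay at or near the gene start. Pcdh8 (chromosome 14, 79766772 to 79771312), the paraxial protocadherin of forming somites, had a single peak in each library that spanned the start. The wild-type mark covered 5957 bp, the knockout mark 5692 bp and RYBP 4408 bp, and the knockout and RYBP peaks lay wholly inside the wild-type mark. Pcdh17 had 3209 bp of wild-type mark, 3967 bp of knockout mark and 4899 bp of RYBP. Pcdh10, which guides axons of the forebrain, had 1480, 1919 and 5213 bp. Pcdh7 had 4335, 4382 and 5593 bp. Knockout cover thus lay between 0.96 and 1.30 times the wild type at these 4 genes, and at none of Pcdh7, Pcdh10 and Pcdh17 did another wild-type H2AK119ub peak lie within 1 Mb.

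Pcdh1 (chromosome 18, 38185914 to 38212048), of airway and skin epithelium, had a different form. It was covered over most of its length, with 21480 bp of wild-type mark, 18357 bp of knockout mark and 5242 bp of RYBP in 2 peaks. Pcdh12 of endothelium lay at 1536 and 1707 bp with no RYBP. Pcdh9 had 1859 bp of RYBP at its start and no H2AK119ub, whose nearest wild-type peak was 8.57 Mb away. Pcdh15, a tip-link partner of Cdh23, had 881 bp in the knockout alone inside a RYBP peak of 2704 bp, at the lower-coordinate end. Pcdh18 had 550 bp in the knockout alone. Pcdh19, the X-linked gene mutated in a form of epilepsy, and Pcdh20 had no peak.

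All 3 Celsr genes, which encode seven-pass cadherins of planar polarity, were marked in both genotypes and had RYBP. Of all genes 20.7% had the mark in both and 37.6% had RYBP, and of long genes 30.3% and 62.0%. Celsr2 (chromosome 3, 108390848 to 108416069) had the highest covered share among the 41, at 87.1% with DDX5 and 78.4% without it, or 25457 and 22916 bp. Its peak of 13419 bp, from 108392386 to 108405804, was the widest over any member, and 3 RYBP peaks covered 5168 bp. Celsr3, on chromosome 9, had 13684 bp of wild-type mark, 10810 bp of knockout mark and 7327 bp of RYBP in 4 peaks. Of these RYBP peaks, 1 lay beyond the gene and within 2 kb of an end of Slc26a6. So did 1 wild-type H2AK119ub peak, with 491 bp counted for Celsr3. Celsr1, on chromosome 15, differed from Celsr2 and Celsr3 in having more knockout than wild-type cover. It had 7559 bp of wild-type mark, 13337 bp of knockout mark and 3441 bp of RYBP.

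In the Fat and Dchs group, Dchs1 (chromosome 7, 105752989 to 105788355), the ligand of Fat4, was covered over 54.1% with DDX5 and 27.5% without it, or 21309 and 10831 bp, with 4503 bp of RYBP. All 8 knockout peaks lay on wild-type mark. At its lower-coordinate end 2 wild-type peaks, 1 knockout peak and 1 RYBP peak were also within 2 kb of an end of Tpp1. Fat4, its receptor, had 4828, 4722 and 3801 bp around the start. Fat3 had 1360 bp of wild-type mark, 578 bp of knockout mark and 3223 bp of RYBP, and Fat2, expressed in cerebellum, had 2696 and 3381 bp and no RYBP. Fat1 had 5544 bp of RYBP in 3 peaks, no wild-type H2AK119ub and 1395 bp in the knockout alone. The ligand was thus covered across the gene and the receptor only near its start.

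The comparison of genotypes asked which of these genes carried H2AK119ub with and without DDX5. Of the 24 wild-type-marked genes, 23 kept a knockout peak, 95.8% (79.8% to 99.3%), against 74.1% of all genes with the wild-type mark and 81.8% of the long ones. All 23 had at least 1 knockout peak on a wild-type peak. The mark was present in both genotypes at these 23 of 41, where 20.7% of all genes and 30.3% of long genes had it in both. Fat1, Pcdh15, Cdh16 and Pcdh18 were marked in the knockout alone, each by 1 peak of 1395, 881, 862 and 550 bp, where 3.00% of all genes and 5.85% of long genes were. These 4 single peaks were narrow, and with peaks of at least 1 kb only Fat1 was left in that class. With windows of 2 kb around the gene starts, or both ends where the start was not given, only Pcdh18 was left. The only RefSeq start at hand for Fat1, and likewise for Pcdh15, lies well inside the gene, and the RYBP peaks near their lower-coordinate ends fell outside those windows. Such windows held wild-type H2AK119ub at 24 of the 41 genes, where 21.5% of all genes and 26.5% of long genes had it. The knockout mark was there at 24, where 17.9% and 25.7% had it, and RYBP at 20, where 33.1% and 52.5% had it. A start was missing for 14 of the 41 genes, which were given a window at each end. Starts were given for 17274 of the 21631 protein-coding genes, so members and background differ in this and the shares are not like for like.

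Summed over the 41 genes, the knockout mark covered 358 kb and the wild-type mark 471 kb, a ratio of 0.76 beside 0.67 for all protein-coding genes. Of the 23 genes marked in both, 8 had more cover in the knockout (34.8%, beside 21.2% of all genes marked in both and 24.7% of long ones) and 15 less, and the median ratio was 0.85 beside 0.72 for all genes marked in both. A wild-type cover at least 1.5 times the knockout was found at 8 of the 23, where 43.5% of all such genes and 44.7% of the long ones had it. The lowest ratio was 0.425 at Fat3, from 1360 to 578 bp. Cdh23, Dchs1, Cdh22 and Cdh5 had ratios of 0.51, 0.51, 0.59 and 0.62, and Cdh3, Cdh11 and Cdh15 had 0.62, 0.64 and 0.65. A knockout cover at least 1.5 times the wild type was found at 3 of the 23, where 6.45% of all such genes and 9.65% of the long ones had it.

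Those 3 were Celsr1 at 1.76, Cdh4 at 1.58 and Cdh8 at 1.53. Cdh8 no longer passed with peaks of at least 1 kb, at 1.12, or without flanks, at 1.32, while Fat2 passed with peaks of at least 1 kb, at 1.99. At Cdh4 the added cover lay inside the gene. When it was cut into 10 equal parts from the lower end, wild-type peaks covered 13.4% of part 9 and knockout peaks 31.5%. Within 2 kb of its ends the difference, knockout minus wild type, was reversed to -545 bp. In the 1 Mb on either side of Cdh4 the knockout cover was 0.75 times the wild type, and on chromosome 2 as a whole 0.61 times. The excess at Cdh4 thus stood beside a deficit around it. Around Celsr1 the ratio was 1.11 within 1 Mb and 0.84 on chromosome 15, and within 2 kb of the Celsr1 ends the difference was -406 bp.

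**Figure D2:**
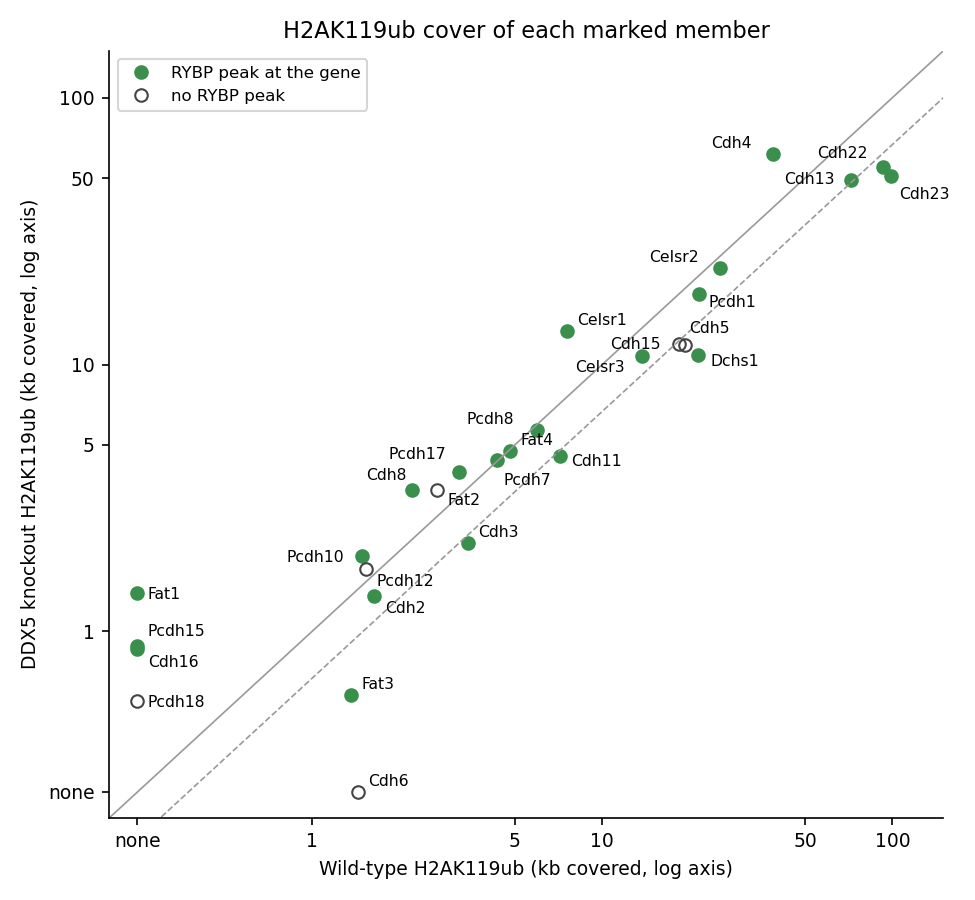
Each point is 1 of the 28 genes marked in at least 1 genotype, with the length covered by H2AK119ub in the wild type (x axis) and in the DDX5 knockout (y axis), both in kb on log axes with a place for no peak, and filled where the gene had a RYBP peak. The solid line marks equal cover and the dashed line the ratio of 0.67 over all protein-coding genes. Cdh4 and Celsr1 lie above the solid line, Cdh23, Cdh22 and Dchs1 below it, and Pcdh7, Pcdh8 and Fat4 close to it.

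The positions of the mark differed between genotypes as well. In the 4 genes with many peaks, 38.1% of the wild-type covered length was also covered in the knockout, against 65.7% in the other members and 46.0% over all peaks of the genome. At Cdh13, 16 of 46 wild-type peaks met a knockout peak, and 15 of 38 knockout peaks met a wild-type peak. At Cdh23 the counts were 25 of 65 and 28 of 44, and at Cdh4 16 of 30 and 20 of 47. Cdh22 differed from these, with 26 of 35 and 34 of 35. Nearly all knockout peaks of Cdh22 therefore met a wild-type peak, while most of those of Cdh13 and Cdh4 did not. Wild-type peaks covered 73.1% of Cdh22 and its flanks, 24.8% of Cdh23, 8.44% of Cdh4 and 6.04% of Cdh13. A peak placed anywhere in Cdh22 would thus often meet one, and the part of this cover in the counts was not tested. Over the whole family, 53.1% (46.8% to 59.3%) of wild-type peaks met a knockout peak, beside 48.9% of all peaks. Of knockout peaks, 63.2% (56.9% to 69.0%) met a wild-type peak, beside 66.5% of all. Intervals on peaks, here and for RYBP below, treat peaks as independent and cover counting error only. Of the 241 wild-type peaks, 176 lay in Cdh4, Cdh13, Cdh22 and Cdh23.

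**Figure D3:**
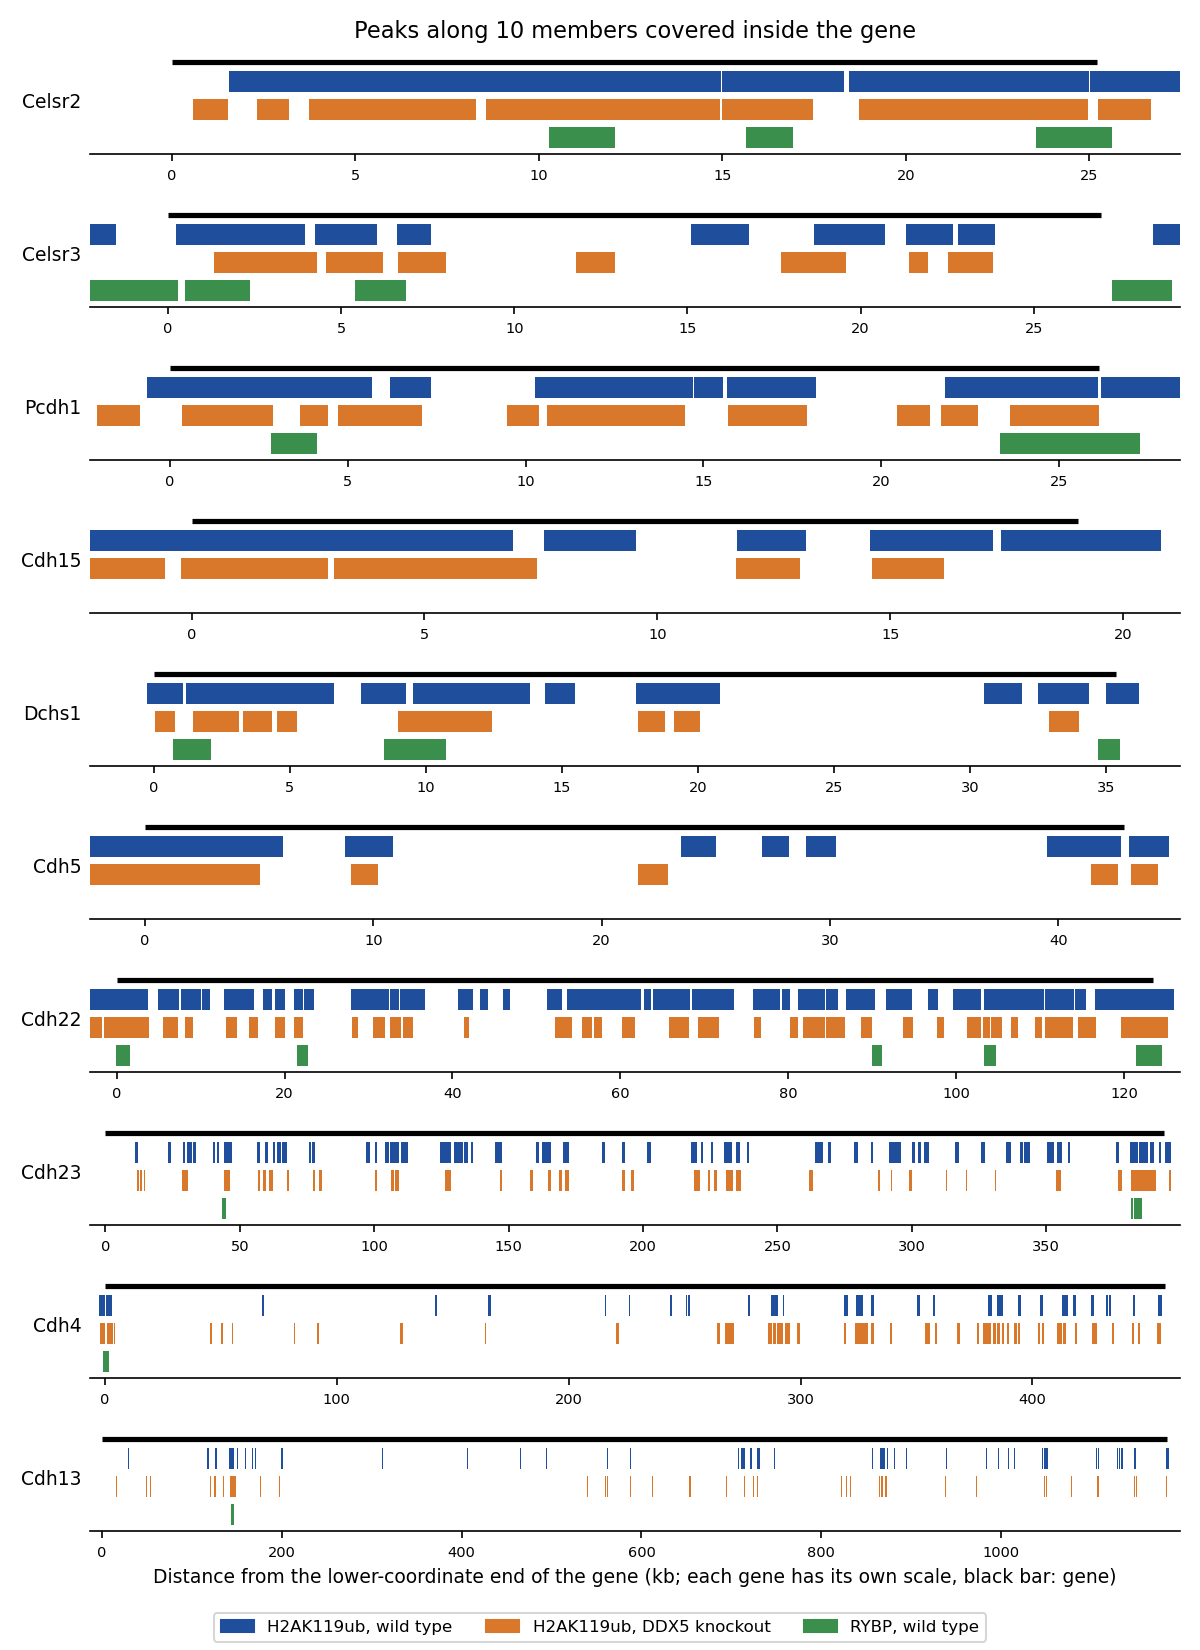
Each panel is 1 gene, drawn as a black bar from its lower-coordinate end (distance in kb, with a scale of its own), with the peaks of the 3 libraries as coloured bars below. Peaks fill most of Celsr2, Pcdh1, Cdh15 and Cdh22, and are scattered as many narrow bars over Cdh23, Cdh4 and Cdh13. RYBP bars are few in every panel and absent at Cdh15 and Cdh5.

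Cover of 20% or more of the gene and flanks, a level chosen after the values were seen, was reached in the wild type by 9 of the 41 genes, where 11.4% of all protein-coding genes and 2.93% of long ones reached it. They were Celsr2, Cdh15, Cdh22, Pcdh1, Pcdh8, Dchs1, Celsr3, Cdh5 and Cdh23. In the knockout 8 genes reached it, where 7.59% of all and 1.32% of long genes did. Cdh23, at 12.8%, was the one that did not. Of the 9 genes, Cdh22 and Cdh23 alone are 100 kb or longer, as are 22 of the 41. The long-gene shares are therefore no match for the other genes named here. Pcdh8 is the shortest member, at 4541 bp, so its share of 69.7% came from 1 peak at the start.

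RYBP was set beside wild-type H2AK119ub in the second comparison. Of the 24 genes with wild-type H2AK119ub, 19 also had RYBP, 79.2% (59.5% to 90.8%), against 70.2% of all protein-coding genes with the mark and 87.6% of the long ones. Both lay over 19.6% of all protein-coding genes and 32.5% of long ones. The 5 marked genes without RYBP were Cdh5, Cdh6, Cdh15, Fat2 and Pcdh12, where 8.29% of all genes and 4.61% of long genes were of this kind. Of the 44 RYBP peaks, 36 met a wild-type H2AK119ub peak, 81.8% (68.0% to 90.5%), beside 46.4% of all RYBP peaks. In the other direction, 43 of 241 H2AK119ub peaks met RYBP, 17.8% (13.5% to 23.2%), beside 21.8% of all. In Cdh4, Cdh13, Cdh22 and Cdh23, 12 of 176 met RYBP, and in the remaining genes 31 of 65. Most of the peaks scattered inside the 4 long genes thus had no RYBP peak on them.

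At gene starts RYBP peaks often overlapped wild-type H2AK119ub peaks. RefSeq start sites and promoters, from 250 bp before to 50 bp after the start, were at hand for 27 of the 41 genes. RYBP peaks reached 12 of these 27 promoters, wild-type H2AK119ub 8 and knockout H2AK119ub 7, beside 29.1%, 10.3% and 7.79% of all promoters of protein-coding genes. Here and below each member was given 1 promoter, while the background held all 21045 promoters of 17274 genes. Members and background are therefore not like for like. For 5 of the 27, none with RYBP over it, the start used lies far inside the gene, at 725.6 kb for Pcdh15, 662.6 kb for Cdh12, 487.6 kb for Cdh18, 25.2 kb for Fat2 and 17.1 kb for Fat1. At Pcdh17, Celsr3, Pcdh7 and Cdh8 the RYBP peak covered the start, and the nearest wild-type H2AK119ub lay 9, 208, 442 and 726 bp downstream of it. At Fat3 its nearest base was at -462 bp, upstream. At Pcdh17, Celsr3, Pcdh7, Cdh8 and Fat3 the RYBP peak over the start also overlapped this nearest wild-type mark. At Pcdh8, Pcdh10, Fat4, Cdh22 and Celsr2 both covered the start.

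**Figure D4:**
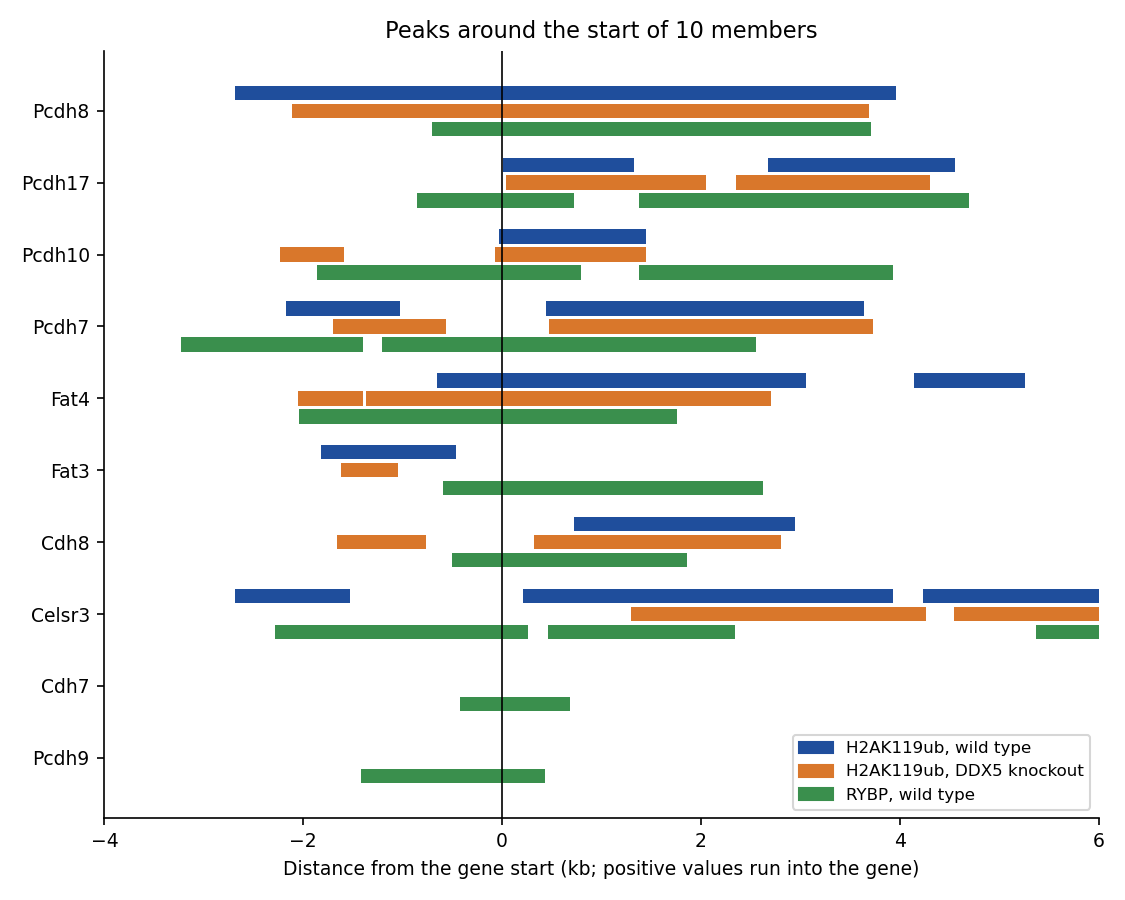
Peaks of the 3 libraries (coloured bars) are drawn around the RefSeq start of 10 genes, by distance from the start in kb with positive values running into the gene. RYBP crosses the start in all 10, while wild-type H2AK119ub crosses it at Pcdh8, Pcdh10 and Fat4 and leaves it uncovered at Pcdh17, Pcdh7, Fat3, Cdh8 and Celsr3. Cdh7 and Pcdh9 show RYBP alone.

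The promoters differed in their CpG dinucleotides, the letters CG, which read the same on both strands. The 12 promoters with RYBP held 11 to 40 CpG with a median of 22.5, and the 15 without held 2 to 23 with a median of 8. Of those 15, Fat1 and Pcdh15 had RYBP elsewhere over the gene, and without the 5 genes whose start lies far inside, the median of the remaining 10 was 7.5. Over all promoters of protein-coding genes the medians were 25 with RYBP and 7 without. For wild-type H2AK119ub the medians were 19 and 11 at the members and 18 and 13 over all promoters. The medians thus lay farther apart for RYBP than for H2AK119ub, among members as among all promoters, a description with no test. The GC box, GGGCGG or CCGCCC on the other strand, was found in 33.3% of the member promoters and in 46.7% of all. These are counts of letters, and no binding site is inferred from them.

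To show this range, 7 promoters of 300 bp are given as RefSeq has them on GRCm38.p6 (mm10), 5′ to 3′ in the direction of the gene, with every CpG in capitals. Pcdh8 (chr14:79771263-79771562, minus strand) was covered by both marks, with 14 CpG. Cdh22 (chr2:165234688-165234987, minus strand) was too, with 38. Pcdh17 (chr14:84443313-84443612, plus strand) had RYBP throughout and H2AK119ub in its last bases, with 26. Cdh7 (chr1:109982650-109982949, plus strand) had RYBP alone, with 18. Pcdh19 (chrX:133688944-133689243, minus strand) also had 18 and no peak. Cdh15 (chr8:122848124-122848423, plus strand) had H2AK119ub without RYBP, with 7. Pcdh20 (chr14:88471347-88471646, minus strand) had 4 and no peak.
Pcdh8: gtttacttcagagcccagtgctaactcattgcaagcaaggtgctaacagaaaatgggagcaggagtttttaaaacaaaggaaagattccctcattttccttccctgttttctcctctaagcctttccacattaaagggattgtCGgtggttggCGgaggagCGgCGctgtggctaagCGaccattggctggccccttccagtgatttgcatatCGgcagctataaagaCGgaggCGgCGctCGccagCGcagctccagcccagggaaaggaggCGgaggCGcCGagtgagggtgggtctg
Cdh22: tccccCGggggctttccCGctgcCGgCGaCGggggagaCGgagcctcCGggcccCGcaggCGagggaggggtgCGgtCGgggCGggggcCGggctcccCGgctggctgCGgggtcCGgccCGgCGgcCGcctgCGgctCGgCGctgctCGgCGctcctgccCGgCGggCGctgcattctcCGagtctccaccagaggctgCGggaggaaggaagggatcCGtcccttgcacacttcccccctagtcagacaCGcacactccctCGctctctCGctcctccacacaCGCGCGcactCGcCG
Pcdh17: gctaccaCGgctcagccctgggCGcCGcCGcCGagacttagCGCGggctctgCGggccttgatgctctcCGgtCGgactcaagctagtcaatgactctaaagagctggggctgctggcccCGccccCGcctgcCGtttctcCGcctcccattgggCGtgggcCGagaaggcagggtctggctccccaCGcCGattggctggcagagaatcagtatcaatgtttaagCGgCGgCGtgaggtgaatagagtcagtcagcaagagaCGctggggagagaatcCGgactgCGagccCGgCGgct
Cdh7: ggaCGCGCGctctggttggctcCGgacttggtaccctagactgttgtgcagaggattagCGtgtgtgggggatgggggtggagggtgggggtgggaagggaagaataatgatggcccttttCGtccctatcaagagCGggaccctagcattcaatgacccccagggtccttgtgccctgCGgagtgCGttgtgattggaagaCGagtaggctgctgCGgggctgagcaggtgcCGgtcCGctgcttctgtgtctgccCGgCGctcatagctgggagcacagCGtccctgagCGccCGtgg
Pcdh19: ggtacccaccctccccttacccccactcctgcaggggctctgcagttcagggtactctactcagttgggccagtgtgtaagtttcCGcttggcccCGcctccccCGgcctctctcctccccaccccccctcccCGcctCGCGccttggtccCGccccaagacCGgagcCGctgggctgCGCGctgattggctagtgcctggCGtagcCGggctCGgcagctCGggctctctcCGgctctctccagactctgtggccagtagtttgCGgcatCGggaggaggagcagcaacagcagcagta
Cdh15: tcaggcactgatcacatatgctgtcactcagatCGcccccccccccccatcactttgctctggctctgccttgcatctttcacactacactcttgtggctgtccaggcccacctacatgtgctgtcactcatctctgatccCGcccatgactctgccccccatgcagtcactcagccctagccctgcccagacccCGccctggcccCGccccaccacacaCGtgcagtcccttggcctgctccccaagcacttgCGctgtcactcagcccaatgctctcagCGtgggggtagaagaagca
Pcdh20: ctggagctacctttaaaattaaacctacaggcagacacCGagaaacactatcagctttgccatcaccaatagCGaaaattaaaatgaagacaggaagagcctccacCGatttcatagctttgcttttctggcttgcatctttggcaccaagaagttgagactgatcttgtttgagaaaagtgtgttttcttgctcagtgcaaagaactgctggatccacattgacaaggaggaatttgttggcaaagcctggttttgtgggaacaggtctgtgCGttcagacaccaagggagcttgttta

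Read against the peaks, the sequences of Cdh7 and Pcdh19 have the same CpG number, and RYBP covered the former and had no peak at the latter, whose nearest RYBP peak was 785 kb away. Pcdh18, with 23 CpG, and Cdh20, with 18, also had no RYBP peak. A CpG-rich promoter was thus present in members with and without RYBP. At the poor end, Cdh15 and Fat2, with 7 and 4 CpG, were covered by wild-type H2AK119ub and not by RYBP, at the inner start in the case of Fat2.

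**Figure D5:**
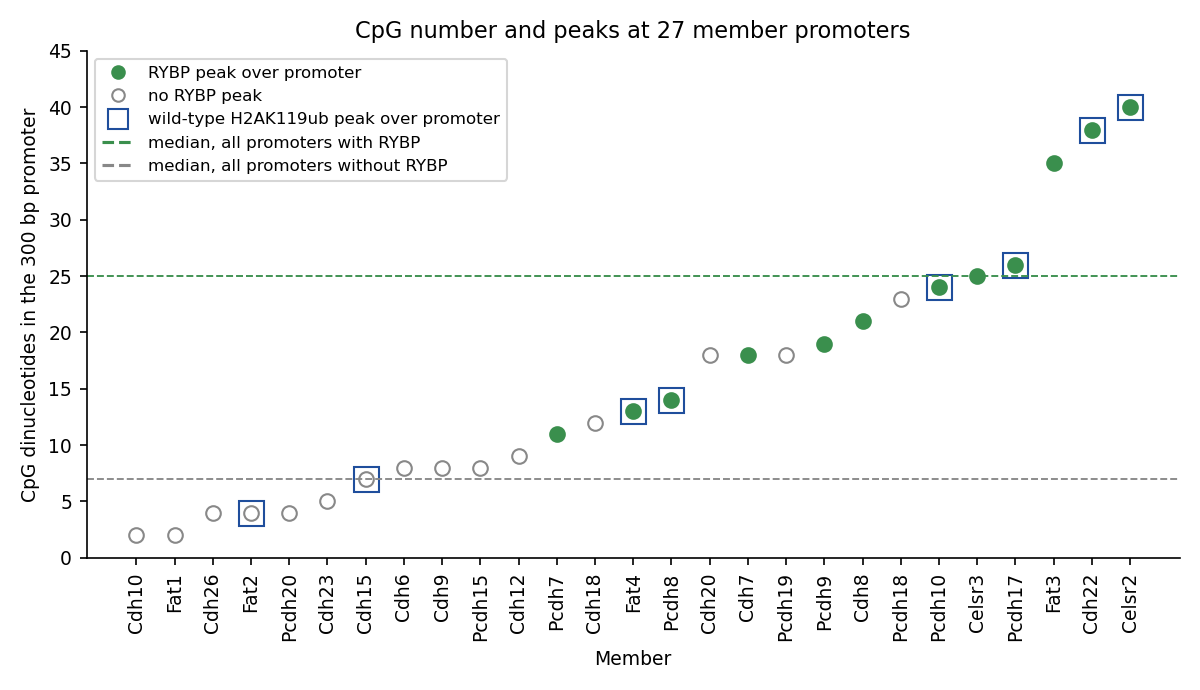
Each point is the promoter of 1 of 27 genes, ordered by its number of CpG dinucleotides in 300 bp (y axis), filled where a RYBP peak reached it and boxed where wild-type H2AK119ub did. Filled points lie between 11 and 40, open points between 2 and 23, and the dashed lines are the medians of 25 and 7 for all promoters with and without RYBP.

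Genes that work with cadherins were read in the same way, from a list of 54 chosen by known role. Their median length was 46929 bp, against 17329 bp for all protein-coding genes, and a long gene meets more peaks. The shares of all genes given beside them are not matched for length. Wild-type H2AK119ub lay over 30 (55.6%), the knockout mark over 26 (48.1%) and RYBP over 32 (59.3%), beside 27.9%, 23.6% and 37.6% of all protein-coding genes. The mark was present with and without DDX5 at 23 (42.6%), only with it at 7 (13.0%) and only without it at 3 (5.56%), beside 20.7%, 7.20% and 3.00% of all genes. Among those marked in both, the most covered were Myo7a (20312 and 12891 bp) and Ush1g (19814 and 14500 bp), whose products act with Cdh23 in hair cells, and Pkp1, a desmosomal plakophilin (15298 and 8550 bp). The wild type alone had Cdhr5 (3595 bp), a microvillar protocadherin, Arvcf (3234 bp), a catenin, and Cdhr1 (1771 bp) of photoreceptors. The knockout alone had Prickle2 (1940 bp), a planar polarity protein, Fjx1 (807 bp), which modifies Fat and Dchs, and Nectin4 (703 bp). The longest RYBP cover was at Ctnnd2 (4152 bp), Pkp3 (3638 bp), Ush1g (3583 bp) and Clstn2 (3502 bp). Of the 30 with wild-type mark, 23 had knockout mark, 76.7% (59.1% to 88.2%), near the 74.1% of all genes with the wild-type mark.

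Further partners are named here after their values were seen. Ctnnb1 and Ctnnd1, the catenins bound to E-cadherin, had RYBP (1079 and 1894 bp) and no H2AK119ub, while Ctnna1 and Jup had no peak. None of the desmosomal cadherins Dsg1a, Dsg2, Dsg3, Dsg4, Dsc1, Dsc2 and Dsc3 had a peak in any library, where 52.8% of all protein-coding genes had none. These genes lie together on chromosome 18, from 19960930 to 20604526, and so are not separate observations. Snai1, a repressor of Cdh1, had 8425 bp of wild-type mark, 7170 bp of knockout mark and 3380 bp of RYBP, and the related repressor Snai2 had 1757 bp of RYBP and no H2AK119ub. The other catenins of the list were mixed. Ctnna2 had 3371 and 4133 bp of H2AK119ub, Ctnnd2 had 1040 and 2421 bp, and Arvcf was marked in the wild type alone. Ctnna3 had 2002 bp of RYBP and no H2AK119ub, and Ctnnal1 had no peak. Among the other repressors of the list, Twist1, Twist2 and Zeb2 had H2AK119ub in both genotypes and Zeb1 had no peak.

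The edge of the 2 kb flank decided few values. The farthest counted peak lay 1951 bp from Cdh23 in the knockout, and the nearest one left out was RYBP at 2106 bp from Cdh3, a gene already counted for RYBP. Among genes without wild-type H2AK119ub, the nearest case was Cdh16, whose closest wild-type H2AK119ub peak lay 4177 bp away.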

How the data were processed

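Per the submitters' processing notes, Bowtie2 2.2.5 and MACS 1.4 were used with mm10. The sources used here do not give their roles, the peak threshold or the use of inputs. The authors deposited 1 peak list per library, with chromosome, start and end, and a score of 0 in every row, so no peak height was used and depth is unknown. Groups were taken from the sample titles.

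Genes were placed with a RefSeq gene table for GRCm38.p6 (mm10 positions). It gives no exons, so exon or intron is not stated. Starts and promoters came from RefSeq for 27 members. Positions are counted from 1. Peaks were counted over each gene with 2 kb flanks, the length was summed, and shares have Wilson 95% intervals (Python 3.11.15, scipy 1.17.1). Overlap counting was tested on simulated data. The named-gene rule covered Cdh1, Cdh2, members marked in 1 genotype alone, the 8 with most wild-type H2AK119ub, the 8 with most RYBP, and, among partners, up to 3 per class and 4 with most RYBP. The other members are given so that all are accounted for. Members and lists were chosen with earlier results of these data known.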

Additional observations from a re-analysis of the deposited data

How the results depend on the processing

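No paired analysis was possible because each group has 1 library. Alternatives were an overlap of 50% of the peak, no flank, a flank of 5 kb, windows of 2 kb around starts or both ends, peaks of at least 1 kb, merging within 2 kb, and equal numbers of the widest peaks. Chosen after seeing the data were leaving out the 4 genes with most peaks, leaving out chromosome 8 for counts by library and for the ratio, both settings tried for partner genes, and promoters without the 5 genes whose start lies 10 kb or more inside. Over all of these, 63 recomputed counts stayed within 1.5 times the reported value. Genes marked in the wild type alone numbered 2 (Cdh6 and Fat3), not 1, without flanks and with peaks of at least 1 kb. Genes marked in the knockout alone numbered 1 with start windows, 1 with peaks of at least 1 kb and 2 without chromosome 8 (no member lies on chromosome 6), not 4. The ratio of knockout to wild-type length, 0.76, was 0.80 in start windows, 0.68 with peaks of at least 1 kb, 0.78 without chromosome 8 and 0.84 without Cdh4, Cdh13, Cdh22 and Cdh23. In start windows the difference of knockout minus wild type turned to -545 bp at Cdh4 and -406 bp at Celsr1. Fewer peaks or windows enter these settings by construction.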
